A study of Homo sapiens with 9 samples.

Results

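The comparison described here set H1 cells in N2B27 medium with the EZH2 inhibitor EPZ-6438 against H1 cells in N2B27 medium alone. It uses 6 of the 9 RNA-seq libraries of the series, 3 in each group, chosen by their labels with no reference to any measured value. H1 is an established human embryonic stem cell line, here with a wild-type genotype. N2B27 is a serum-free basal medium. Both groups came from cells grown in PXGL, a medium that maintains naive human pluripotency. One group had N2B27 alone and the other had N2B27 with 5 µM EPZ-6438 for 3 days. The 3 libraries of cells still in PXGL were not compared here and entered only 1 alternative fit. The labels do not state how long the cells without inhibitor had been in N2B27, so the effect of the inhibitor and that of a different time out of PXGL cannot be told apart. The sources also do not say whether the replicates were separate cultures, so the p-values rest on variation among the libraries, some of which may be technical.

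EZH2 is the catalytic subunit of Polycomb repressive complex 2 (PRC2), which also contains EED and SUZ12 and places methyl groups on lysine 27 of histone H3. In embryonic stem cells this mark covers many developmental genes at CpG-rich promoters that are silent but can be activated later, the HOX clusters among them. EPZ-6438, also called tazemetostat, competes with the methyl donor at the active site of EZH2 and leaves the protein in place, so the level of EZH2 RNA does not report on whether the inhibitor acted. The mark itself was not analysed here.

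The table held 40330 genes after 2 rows of ribosomal RNA without a count were left out, and 21737 genes had at least 1 count in the 6 libraries. Total counts were 14482124 to 15295189 in N2B27 and 14719595 to 16479593 with EPZ-6438, at which 3 counts correspond to 0.182 to 0.207 counts per 1e6 counts (CPM). The biological coefficient of variation, a measure of the spread between replicates, was 4.76% in N2B27 and 5.57% with the inhibitor. The first principal component of the 6 libraries held 63.4% of the variance and separated the groups. Ribosomal protein genes took 5.23% to 5.30% of counts in N2B27 and 5.81% to 6.10% with the inhibitor. Mitochondrially encoded genes took 5.77% to 5.84% and 5.13% to 5.60%. The part of these shifts in the results below was not tested. In bulk RNA, fewer cells of a type and less RNA per cell cannot be told apart. All levels below are CPM with TMM scaling, given for replicates 1, 2 and 3 in turn.

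EPZ-6438 was followed by changes in a large share of the expressed genes, most of them small. Of 14566 genes with enough counts to test, 5641 (38.7%) were called at an adjusted p under 0.05, 2922 (20.1%) higher and 2719 (18.7%) lower. The directions differed in size. Among the genes that rose the median change was 1.47-fold, and among those that fell it was 1.23-fold. Over 2-fold, 831 genes (5.71%) rose and 187 (1.28%) fell. Over 4-fold the counts were 238 and 21, over 8-fold 68 and 3, and over 16-fold 21 and 1. The 3 libraries of one group lay wholly above those of the other for 24.4% of tested genes in the direction of the inhibitor and for 23.1% in the direction of N2B27. When the 3 PXGL libraries were added to the fit, 3752 genes were called, 2149 higher and 1603 lower, and when a change of more than 1.5-fold was required, 891 were called, 734 higher and 157 lower.

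**Figure D1:**
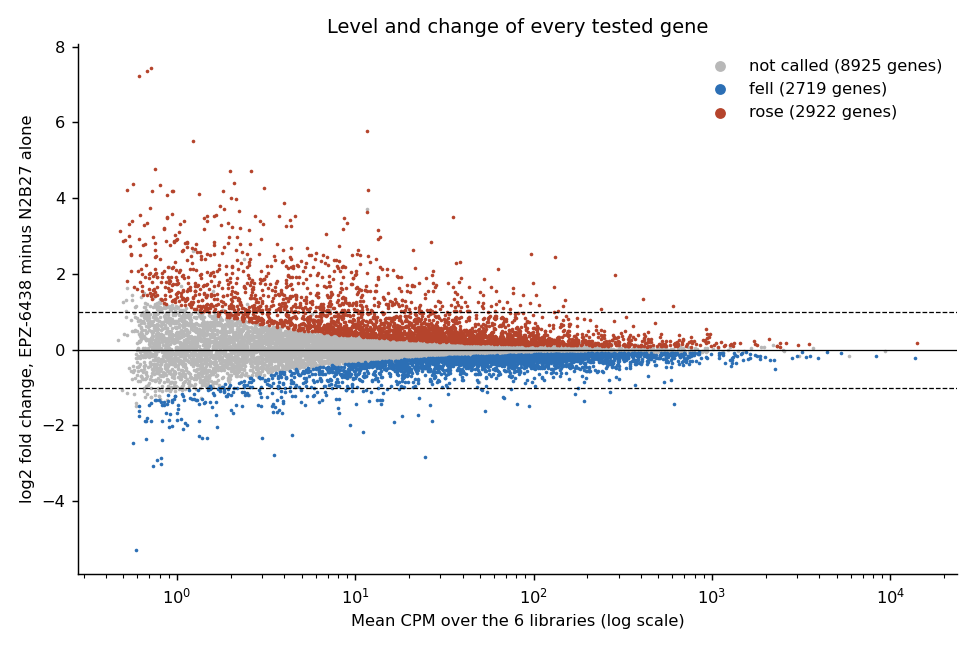
Each point is 1 of the 14566 tested genes, with its mean CPM over the 6 libraries on a log scale against its log2 fold change (EPZ-6438 minus N2B27 alone); colour gives the call and dashed lines mark a 2-fold change. Beyond the dashed lines 831 genes were called higher and 187 lower, and most of them lie at low levels.

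The 2 directions also came from different levels of expression. The median gene that rose had 20.2 CPM over the 6 libraries, the median gene that fell had 59.4 CPM, and genes without a call had 16.04 CPM. Among 781 tested genes under 1 CPM, 120 rose and 39 fell. Among 2181 genes over 100 CPM, 404 (18.5%) rose and 941 (43.1%) fell. Changes over 2-fold were mostly in weakly expressed genes. A gene nearly silent in 1 group entered the test only through its counts in the other, so its call follows in part from the filter. Of the 2752 genes between 1 and 5 CPM, 391 rose by over 2-fold, against 11 of the genes over 100 CPM. The power of the test grows with the count, so the shares called are not comparable between levels. Summed over genes, those that rose went from 193114 to 238828 CPM and those that fell from 417219 to 353520 CPM.

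**Figure D2:**
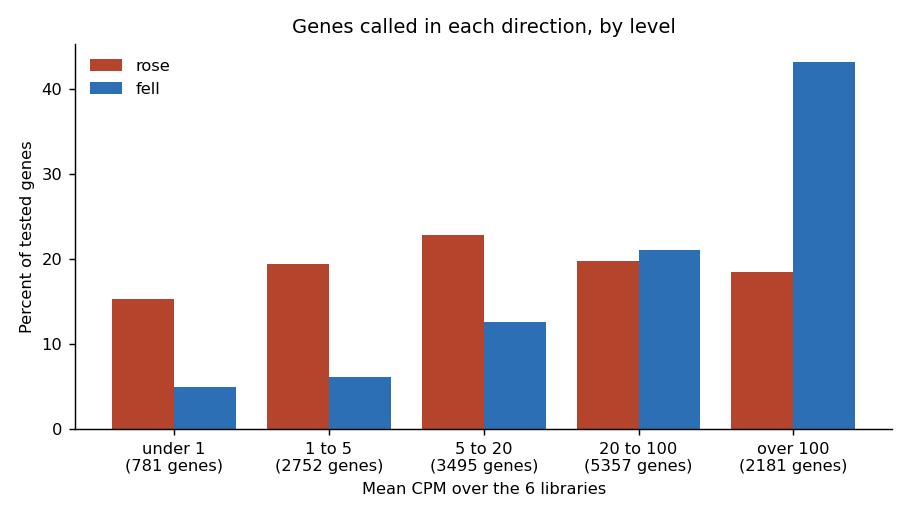
Bars give the percent of tested genes called higher or lower in each range of mean CPM over the 6 libraries, with the number tested under each range. The share that fell runs from 4.99% under 1 CPM to 43.1% over 100 CPM, and the share that rose stays between 15.4% and 22.9%.

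Transcripts of the inhibited complex moved little. EZH2 itself was at 71.1, 68.7 and 74.3 CPM in N2B27 and 78.4, 85.5 and 81.6 CPM with the inhibitor, 1.15-fold higher (adjusted p = 0.00448). EED, which binds the mark, rose 1.40-fold from 18.3, 16.05 and 16.5 to 22.5, 24.99 and 23.7 CPM (adjusted p = 0.000109). SUZ12, the scaffold of the complex, fell 1.15-fold (adjusted p = 0.000692). For EZH1, the other catalytic subunit, no difference passed the test (log2 -0.14, SE 0.11, adjusted p = 0.347). PHC1, a subunit of the partner complex PRC1 named here after its values were seen, fell from 716, 694 and 669 to 353, 403 and 399 CPM (adjusted p = 2.83e-17).

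Among protein coding genes with at least 5 CPM in the higher group, the 12 largest increases ran from 10.5-fold to 54.6-fold. HOXD13, a homeobox factor of limb and genital development (chromosome 2, 176092891 to 176095938, hg38), was at 0.207, 0.349 and 0.661 CPM in N2B27 and 20.7, 24.4 and 23.2 CPM with EPZ-6438 (log2 5.77, SE 0.23, adjusted p = 2.27e-30). HOXA10, a factor of the posterior trunk and reproductive tract, had 0, 0.419 and 0.132 CPM and then 5.99, 3.80 and 5.25 CPM (log2 4.72, SE 0.45, adjusted p = 3.1e-13). CA12, a carbonic anhydrase of the cell surface (chromosome 15, 63321378 to 63382161), had 0, 0.558 and 0.331 CPM against 6.39, 5.79 and 5.38 CPM (log2 4.27, SE 0.39, adjusted p = 8.62e-14). In each of these genes the highest N2B27 library was below 1 CPM and the lowest inhibitor library was above 3 CPM. HOXD13, HOXA10 and CA12 passed the filter on low counts through the inhibitor libraries, so their calls follow in part from that filter. TBX3, a T-box repressor (chromosome 12, 114670254 to 114684164), moved from 1.24, 1.19 and 1.19 to 22.7, 23.1 and 21.4 CPM, which is 18.5-fold (adjusted p = 1.23e-28). NTF3 encodes neurotrophin-3, a growth factor for sensory neurons (chromosome 12, 5432112 to 5521536). Its levels were 0.276, 0.837 and 0.397 CPM without and 6.46, 7.48 and 8.41 CPM with the inhibitor, a 14.6-fold difference (adjusted p = 2.32e-16). MARCKS, a protein kinase C substrate that binds actin at the plasma membrane, rose from 2.41, 1.19 and 1.65 to 21.9, 19.1 and 24.1 CPM (12.3-fold, adjusted p = 4.27e-25). MEIS2, a homeobox partner of HOX proteins, rose 11.5-fold, and FAM167A rose 11.5-fold. TBXT, the brachyury gene of the primitive streak (chromosome 6, 166157656 to 166168700), had the most CPM of the set with the inhibitor, at 62.5, 65.2 and 67.9 CPM against 7.04, 3.77 and 6.48 CPM (11.3-fold, adjusted p = 4.31e-26). HOXA9, GATA6 and HOXC13 rose 11.5-fold, 10.8-fold and 10.5-fold. The replicate ranges of the groups did not overlap for any of these 12 genes, which the choice of genes required.

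**Figure D3:**
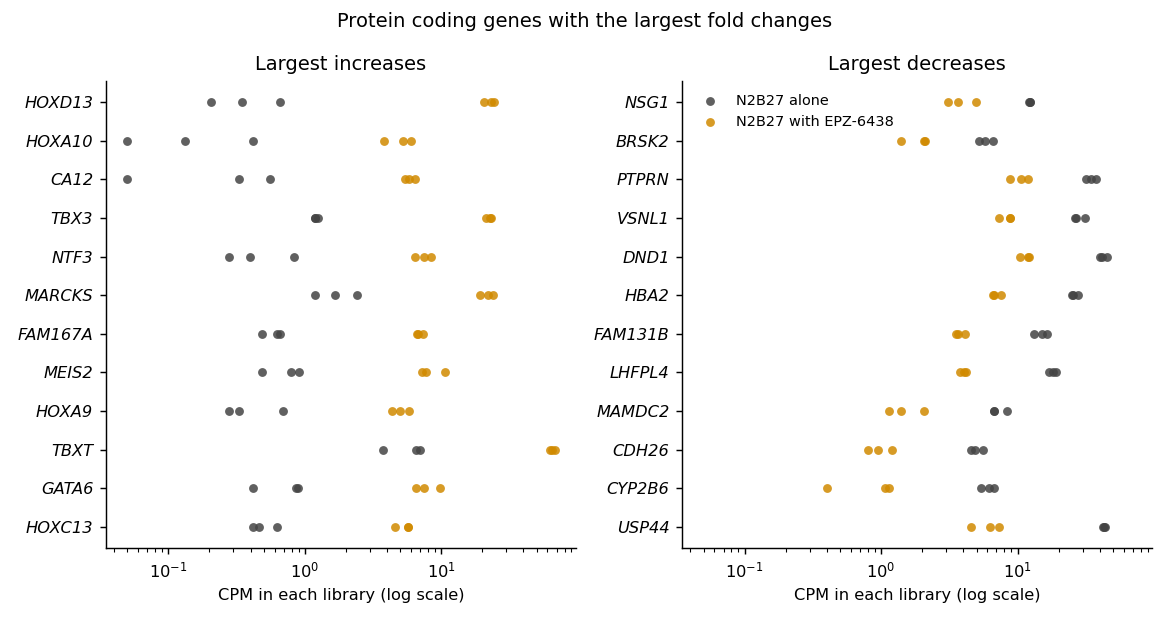
Points give the CPM of each of the 6 libraries on a log scale for the 12 protein coding genes with the largest increases (left) and decreases (right) among those with at least 5 CPM in the higher group; a value of 0 is drawn at 0.05 CPM. HOXD13 goes from 0.207 to 0.661 CPM up to 20.7 to 24.4 CPM, and USP44 goes from 42.5 to 43.8 CPM down to 4.59 to 7.33 CPM.

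The 12 largest decreases by the same rule were smaller, from 3.16-fold to 7.14-fold. USP44, a deubiquitinase of histone H2B and of the spindle checkpoint (chromosome 12, 95516560 to 95551490), fell the furthest among the coding genes chosen by that rule, from 42.5, 42.9 and 43.8 CPM to 6.26, 4.59 and 7.33 CPM (log2 -2.84, SE 0.11, adjusted p = 1.72e-29). CYP2B6, a drug-metabolising cytochrome P450, fell from 6.21, 6.70 and 5.42 to 0.4, 1.15 and 1.08 CPM (log2 -2.78, SE 0.30, adjusted p = 8.34e-12). CDH26, a cadherin of epithelia, had 4.90, 4.53 and 5.62 CPM and then 0.799, 1.21 and 0.942 CPM (5.05-fold lower). LHFPL4, which binds inhibitory neurotransmitter receptors at synapses, went from 18.2, 19.2 and 16.9 to 3.80, 4.16 and 4.04 CPM (4.51-fold lower, adjusted p = 1.32e-18). For DND1, an RNA-binding protein that germ cells need to survive (chromosome 5, 140670794 to 140673586), the levels were 40.4, 41.9 and 45.2 CPM without and 12.2, 10.4 and 11.9 CPM with the inhibitor (3.70-fold lower, adjusted p = 9.94e-25). Alpha globin HBA2 was lower by 3.73-fold, and its reads cannot be split with certainty from those of its near-identical copy HBA1. Of the rest, VSNL1, a neuronal calcium sensor, fell 3.37-fold. PTPRN, a phosphatase-like protein of secretory granules, fell 3.31-fold, BRSK2, a kinase of neuronal polarity, 3.17-fold and NSG1, an endosomal protein of neurons, 3.16-fold. MAMDC2 and FAM131B fell 4.74-fold and 3.93-fold. In all 12 genes the inhibitor libraries lay below the N2B27 libraries, as the choice of genes required.

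Measured as CPM gained or lost, other genes led. ADAM19, a membrane metalloprotease that sheds growth factors (chromosome 5, 157395534 to 157575775), rose from 115, 119.9 and 115 CPM to 443, 459 and 458 CPM (3.89-fold, log2 1.96, SE 0.04, adjusted p = 3.53e-46). LEFTY2, a secreted inhibitor of NODAL, rose from 382, 381 and 364 to 856, 837 and 824 CPM (2.23-fold, adjusted p = 1.32e-38). ALPG, a placental-type alkaline phosphatase with close copies beside it, rose from 227, 228 and 236 to 593, 571 and 597 CPM (2.55-fold), and the split of reads between the copies is uncertain. SERPINB9, an inhibitor of granzyme B, rose from 759, 753 and 767 to 1086, 1095 and 1114 CPM (1.45-fold). All the inhibitor libraries lay above all the N2B27 libraries for these 4 genes, as the choice of genes required. EEF1A1, the translation elongation factor, gained the most CPM, from 13204, 13425 and 13550.1 to 14954, 15181 and 15049.7, which is 1.12-fold. Its call was lost when the PXGL libraries were added to the fit. DNMT3B, a DNA methyltransferase that places new methylation (chromosome 20, 32762385 to 32809356), showed the steepest of the 10 largest losses, from 914, 903 and 891 to 309, 336 and 348 CPM (2.73-fold lower, log2 -1.45, SE 0.03, adjusted p = 7.35e-40). FLNA, which cross-links actin filaments, fell from 2684, 2596 and 2656 to 1925, 1829.8 and 1827 CPM (1.42-fold). TUBB, a beta tubulin, fell from 2456, 2441 and 2459 to 2003, 2037 and 2066 CPM (1.20-fold), and ACTB, a cytoplasmic actin, fell 1.14-fold. MT-CO1, a cytochrome oxidase subunit of the mitochondrial genome, fell from 14582, 14839 and 15090.4 to 12073, 13331 and 12864 CPM (1.16-fold). Other abundant genes were noticed after their values were seen. HK1, the hexokinase of the first step of glycolysis, fell from 374, 356 and 367 to 162, 175 and 172 CPM (2.16-fold, adjusted p = 2.42e-33). PODXL, a sialomucin of the pluripotent cell surface, fell 1.75-fold. ODC1, which makes putrescine and so starts polyamine synthesis, rose from 152, 152 and 154 to 329, 319 and 326 CPM (2.12-fold, adjusted p = 7.14e-33). IL6ST, the shared receptor chain gp130 of the LIF family of cytokines, rose from 221, 235 and 246 to 423, 435 and 418 CPM (1.82-fold).

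Some neighbouring genes were called in the same direction. A run is a set of consecutive tested genes along a chromosome that were all called in that direction. There were 161 runs of at least 3 genes that rose, holding 580 genes, and 123 such runs of genes that fell, holding 438. No expected number was computed, and with 20.1% of tested genes higher and 18.7% lower some short runs arise without any link between neighbours. Genes nearly silent in N2B27 were tested only if counted with the inhibitor, which favours runs of tested genes that rose. Runs of 8 or more were 3 that rose and 1 that fell. The longest lay in the TRIM49 region of chromosome 11 (88293592 to 90192894, hg38), where 11 tested genes in a row rose. A run of 10 covered PRAMEF genes on chromosome 1 (12567910 to 13056491) and a further run of 7 followed at 13148905 to 13421328. HOXA and its flanks, from SKAP2 to EVX1 on chromosome 7 (26667062 to 27250493), gave a run of 10, and HOXC on chromosome 12 (53938765 to 54030823) a run of 7 that included the long non-coding RNA HOTAIR.

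The PRAMEF and TRIM clusters are primate-expanded gene families that are expressed in the early cleavage embryo and in testis. Some of their members are near-identical, so reads may be divided between copies in ways that differ from library to library. The summed level of a cluster is therefore firmer than that of a member. In the PRAMEF cluster 30 genes are in the table and 18 were tested, of which 16 rose and none fell. Its summed level was 24.8, 22.5 and 28.4 CPM in N2B27 and 107, 102 and 100.5 CPM with EPZ-6438, a ratio of 4.09. One of the others, PRAMEF34P, named after its values were seen, had 4.55, 4.26 and 5.22 CPM in N2B27 and 13.99, 0 and 15.1 CPM with the inhibitor, where replicate 2 had no count, and did not pass. PRAMEF36P was counted in that library alone, with 187 reads. The TRIM49, TRIM64 and TRIM53 group holds 21 genes, of which 12 were tested and all 12 rose, TRIM51 pseudogenes included. Their sum went from 56.4, 54.8 and 60.9 CPM to 186, 180 and 182 CPM, a ratio of 3.18. TRIM64B was the weakest of them (1.87-fold, adjusted p = 0.0498) and lost its call when any of 5 libraries was left out, with the block, with DESeq2 or its size factors, with all 9 libraries, without a filter and with the 1.5-fold requirement. On chromosome 2, TRIM43 and TRIM43B both rose and their sum was 3.33 times as high. In all of these clusters the groups did not overlap.

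Among single PRAMEF genes, PRAMEF1 rose from 1.59, 1.26 and 0.661 to 8.19, 7.001 and 7.47 CPM (6.45-fold, adjusted p = 2.85e-13). PRAMEF2 went from 1.72, 1.67 and 1.98 to 9.72, 9.72 and 6.997 CPM (4.89-fold), PRAMEF6 from 2.35, 2.02 and 4.03 to 14.8, 12.7 and 11.3 CPM (4.59-fold), PRAMEF12 from 1.72, 2.30 and 1.39 to 9.06, 5.55 and 5.99 CPM (3.79-fold) and PRAMEF20 from 0.69, 0.419 and 0.595 to 4.13, 4.47 and 3.23 CPM (6.86-fold). In these 5 genes every inhibitor library was above every N2B27 library, as in 24.4% of all tested genes. TRIM49 had 7.93, 7.46 and 10.4 CPM and then 28.2, 27.2 and 23.9 CPM (3.07-fold, adjusted p = 2.2e-17), and TRIM49C had 14.4, 11.9 and 11.1 CPM and then 44.3, 41.3 and 41.2 CPM (3.39-fold, adjusted p = 2.74e-23).

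The HOXA, HOXC and HOXD clusters rose by more but to lower sums. Across the clusters 38 HOX genes annotated as protein coding are in the table. Of these, 22 were tested and 19 rose, or 30 where no filter on low counts was used. HOXA went from 9.18, 8.65 and 7.87 CPM to 60.6, 49.1 and 53.8 CPM (ratio 6.37, 7 of 7 tested members higher). HOXC rose from 2.41, 1.88 and 1.39 CPM to 20.4, 17.9 and 18.2 CPM (ratio 9.94, 6 of 6). HOXD rose from 1.45, 1.60 and 1.65 CPM to 26.3, 31.0 and 30.7 CPM (ratio 18.7, 3 of 3), most of it HOXD13. HOXB moved least, from 29.7, 32.0 and 25.5 CPM to 47.0, 40.7 and 38.0 CPM (ratio 1.44), with 3 of 6 tested members higher. The ranges did not overlap in any of the 4 clusters. HOX members nearly silent in N2B27 entered the test only if they were counted with the inhibitor. The shares of tested members that rose therefore follow in part from the filter. Over all tested genes 20.1% rose. Without a stated strand, reads of HOX genes and of their antisense transcripts cannot be told apart.

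**Figure D4:**
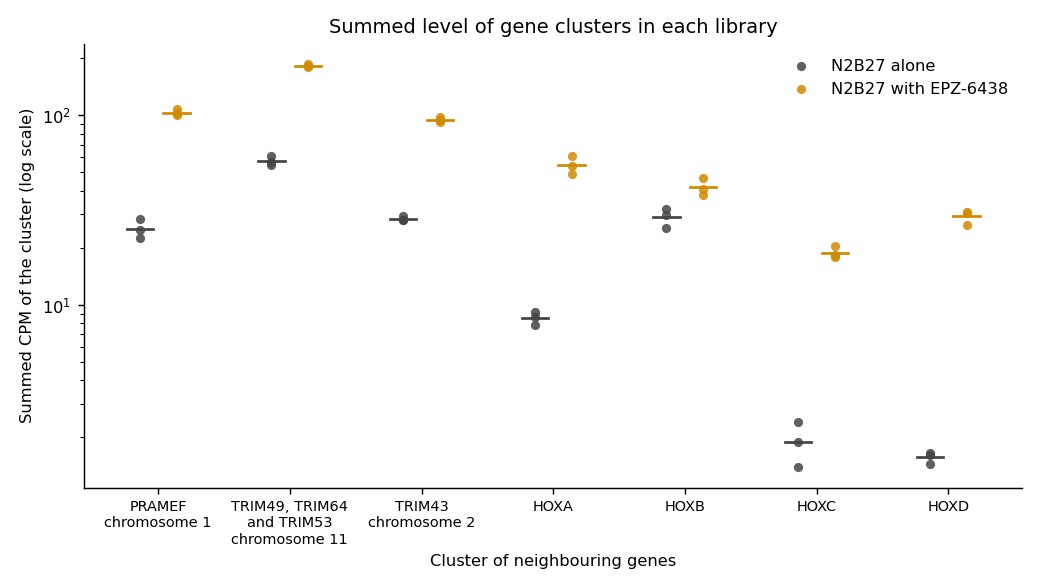
Points give the summed CPM of each cluster in each of the 6 libraries on a log scale and short lines give group means of 3. The PRAMEF sum goes from a mean of 25.3 to 103 CPM, the TRIM49, TRIM64 and TRIM53 sum from 57.4 to 183 CPM and the HOXD sum from 1.57 to 29.3 CPM.

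A few promoters of genes that rose are shown, chosen because they range from few to many CpG dinucleotides. They do not stand for their whole clusters. Each line gives the 250 bases before the RefSeq start of the gene (GRCh38.p14, read 5′ to 3′ along the gene's strand), with every CG dinucleotide in capitals.
PRAMEF1, chr1:12791147-12791396, plus strand: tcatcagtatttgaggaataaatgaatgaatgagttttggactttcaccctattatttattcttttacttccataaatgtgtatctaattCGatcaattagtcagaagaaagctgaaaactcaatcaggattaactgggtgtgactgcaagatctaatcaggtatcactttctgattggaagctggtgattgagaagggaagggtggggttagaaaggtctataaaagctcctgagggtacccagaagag
PRAMEF12, chr1:12773488-12773737, plus strand: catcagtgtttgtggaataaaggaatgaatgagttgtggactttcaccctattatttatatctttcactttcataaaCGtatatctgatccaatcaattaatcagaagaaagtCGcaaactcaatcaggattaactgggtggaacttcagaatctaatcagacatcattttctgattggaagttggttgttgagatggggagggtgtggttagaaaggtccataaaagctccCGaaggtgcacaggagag
TRIM49, chr11:89808576-89808825, minus strand: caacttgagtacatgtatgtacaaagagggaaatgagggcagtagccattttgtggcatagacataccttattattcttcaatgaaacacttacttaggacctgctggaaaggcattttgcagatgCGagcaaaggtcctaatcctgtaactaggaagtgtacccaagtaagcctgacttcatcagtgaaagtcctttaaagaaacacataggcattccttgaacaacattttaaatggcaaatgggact
HOXA9, chr7:27165538-27165787, minus strand: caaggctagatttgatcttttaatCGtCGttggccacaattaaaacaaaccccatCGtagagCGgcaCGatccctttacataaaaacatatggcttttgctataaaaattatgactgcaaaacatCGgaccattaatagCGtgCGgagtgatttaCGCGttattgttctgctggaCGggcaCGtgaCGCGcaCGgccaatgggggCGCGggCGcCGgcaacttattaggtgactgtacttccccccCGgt
HOXA10, chr7:27179862-27180111, minus strand: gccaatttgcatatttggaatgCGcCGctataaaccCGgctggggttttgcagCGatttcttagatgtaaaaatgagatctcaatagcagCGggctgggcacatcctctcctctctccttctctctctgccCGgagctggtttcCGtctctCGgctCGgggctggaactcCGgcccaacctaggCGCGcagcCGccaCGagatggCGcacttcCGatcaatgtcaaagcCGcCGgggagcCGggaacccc
HOXD13, chr2:176092471-176092720, plus strand: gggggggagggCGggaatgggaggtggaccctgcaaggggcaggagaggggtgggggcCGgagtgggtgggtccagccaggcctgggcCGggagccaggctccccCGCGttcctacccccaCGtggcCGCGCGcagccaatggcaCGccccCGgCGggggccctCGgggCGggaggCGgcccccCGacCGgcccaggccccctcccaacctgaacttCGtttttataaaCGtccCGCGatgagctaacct
NTF3, chr12:5431858-5432107, plus strand: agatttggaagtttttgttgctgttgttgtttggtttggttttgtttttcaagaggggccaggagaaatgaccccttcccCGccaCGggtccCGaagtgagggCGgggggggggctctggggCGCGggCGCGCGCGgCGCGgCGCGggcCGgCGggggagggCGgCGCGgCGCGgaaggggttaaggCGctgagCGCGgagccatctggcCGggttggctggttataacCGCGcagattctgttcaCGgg
PRAMEF1 has 1 CG in this window and 37.6% G and C, and PRAMEF12 has 3 and 38.8%. Aligned over the window, they are 85.3% identical, while PRAMEF1 and PRAMEF6, the latter not shown, are 59.5% identical. TRIM49 has 1 CG and is 99.6% identical to TRIM49C, so they differ in 1 of 250 bases. HOXA9 has 20 CG, HOXA10 19, HOXD13 21 and NTF3 28. MARCKS and TBXT, not shown, have 23 each and CA12 has 13. The capitals count dinucleotides in a window of sequence and say nothing of methylation or of what is bound there. From 250 bases before the start to 50 after, promoters with a CG observed-to-expected ratio from 0.6 and from 55% G and C were counted as CpG-rich. They made up 75.9% over all tested coding genes with a promoter. The share was 58.9% among genes that rose over 2-fold and 54.5% among those that fell over 2-fold. Levels differ between these sets, and between 1 and 5 CPM the shares were 62.1%, 57.3% and 54.4%. Between 5 and 20 CPM they were 75.2%, 59.9% and 66.7%, and between 20 and 100 CPM 81.4%, 68.3% and 60%. Under 1 CPM they were 47.96%, 52.1% and 38.9%. Few genes that fell over 2-fold entered some bins, 18 under 1 CPM and 10 between 20 and 100 CPM. Only 73.4% of coding genes that rose over 2-fold, and 67.1% of those that fell, had a promoter in the table used.

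Some other runs of risers joined unrelated genes, and some joined members of 1 family. On chromosome 5 (17065598 to 21589372) BASP1, the primate histone variants H3Y2 and H3Y1, TAF11L11, TAF11L12 and GUSBP1 rose in a row with a median log2 change of 1.55. On chromosome 12 (51281038 to 51997078) 7 coding genes rose, among them the receptors ACVRL1 and ACVR1B of the TGF-beta family, with a median of 0.45. The 4 receptors for the death ligand TRAIL on chromosome 8 (TNFRSF10A to TNFRSF10D) rose next to each other. So did the protocadherins PCDHB2, PCDHB3, PCDHB5 and PCDHB13 on chromosome 5 (median log2 change 2.14), the desmosomal cadherins DSC3, DSC2, DSG3 and DSG2 on chromosome 18 (0.78) and FOXQ1, FOXF2 and FOXC1 on chromosome 6 (3.05). Among the runs of genes that fell, the longest was on chromosome 20 (62544343 to 62969585). There the antisense RNA CRMA went from 1.10, 1.12 and 1.26 to 0, 0 and 0.0673 CPM (adjusted p = 2.33e-06), SLCO4A1, an organic anion carrier, fell 2.76-fold, SLC17A9, which loads ATP into vesicles, fell 2.16-fold, and COL9A3, DIDO1, GID8, OGFR, MRGBP and TCFL5 fell 1.49-fold or less. A run of 6 on chromosome 17 (63832081 to 63972918) held the placental hormone genes CSH1, CSH2 and GH2, whose close similarity leaves the split of reads uncertain. The run DPPA5, KHDC3L, OOEP, DDX43 and CGAS on chromosome 6 (73353062 to 73452276) also fell, with a median log2 change of -0.55, although its first 3 members are genes of the oocyte and early embryo like many that rose.

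Gene families, grouped by the root of their symbols, differed in how many tested members were called. The shares should be read against 20.1% higher and 18.7% lower over all tested genes and a median log2 change of 0.0044. A member that is silent in N2B27 enters the test only if it is counted with the inhibitor, so shares of tested members overstate how many members of a family rose. Protein coding genes in none of the families rose in 18.3% and fell in 20.7% of 11052 tested. Those in a family rose in 31.4% and fell in 15.5% of 2345 tested. The families were largely chosen among regulators and surface proteins, with the general results of these data already known.

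**Figure D5:**
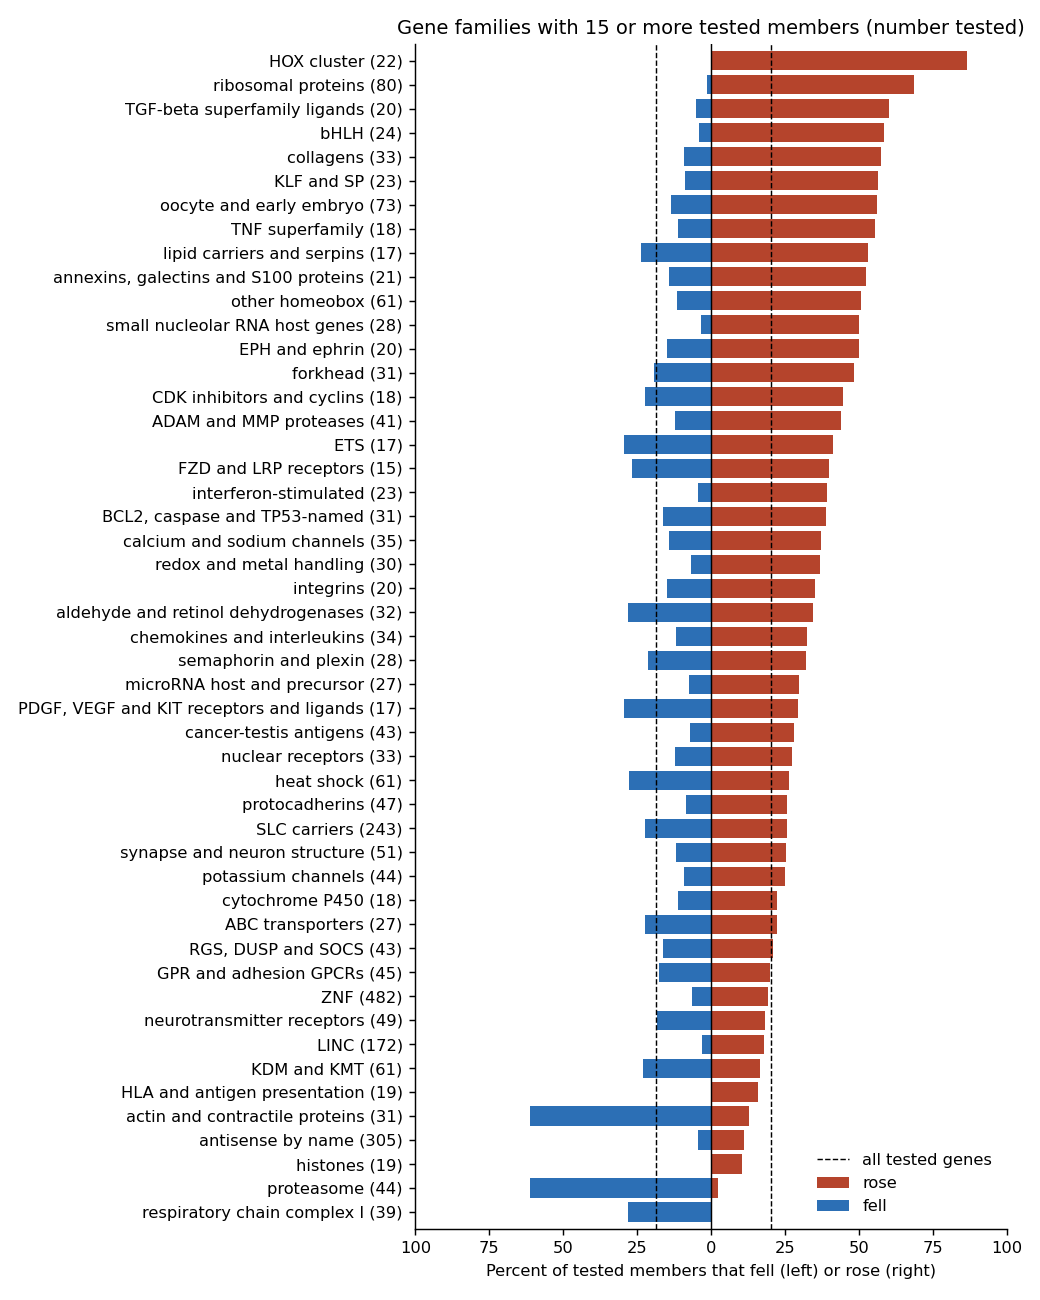
Bars show, for each family with 15 or more tested members, the percent of tested members that rose (right) or fell (left); the number tested stands in parentheses and dashed lines mark 20.1% and 18.7% for all tested genes. HOX genes (86.4% higher) and ribosomal proteins (68.8% higher) lie at the top, while actin and contractile proteins (61.3% lower) and the proteasome (61.4% lower) extend furthest to the left.

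In most transcription factor families other than HOX more members rose than fell. Of 61 tested homeobox genes outside the clusters, of 127 in the table, 31 rose and 7 fell. NKX1-2 rose from 72.9, 68.2 and 70.8 to 123, 115 and 114 CPM (1.66-fold). HESX1, a repressor of the anterior forebrain and pituitary, went the other way, from 5.38, 5.72 and 5.49 to 1.47, 1.63 and 2.22 CPM (3.12-fold lower, adjusted p = 3.37e-07). Among 24 tested bHLH genes 14 rose and 1 fell, HAND1, a factor of heart and extraembryonic mesoderm, from 4.07, 4.88 and 4.83 to 21.4, 15.9 and 18.9 CPM (4.06-fold) and BHLHE40, a clock-linked repressor, from 40.2, 37.04 and 36.6 to 69.5, 70.9 and 64.3 CPM (1.80-fold). Of 8 tested T-box genes 6 rose, and 3 of 5 GATA genes rose, with GATA3 going from 2.14, 1.74 and 2.18 to 6.39, 6.10 and 7.40 CPM (3.26-fold). In the KLF and SP family 13 of 23 rose and 2 fell, KLF3 from 17.04, 19.95 and 19.2 to 55.5, 50.8 and 55.4 CPM (2.88-fold) and the WNT-responsive SP5 from 5.80, 4.88 and 5.03 to 24.2, 21.97 and 23.1 CPM (4.41-fold). Of 31 tested forkhead genes 15 rose, 7 of them over 2-fold, and 6 fell, 0 over 2-fold. FOXC1, a factor of mesoderm and eye development, rose from 1.24, 1.74 and 1.45 to 14.3, 10.02 and 12.6 CPM (8.26-fold, adjusted p = 9.72e-19). FOXH1, the partner of SMAD proteins downstream of NODAL, fell from 112, 105 and 105 to 86.4, 79.7 and 86.9 CPM (1.27-fold) and FOXD3 fell from 23.2, 21.2 and 25.4 to 13.7, 16.2 and 16.95 CPM (1.49-fold). SOX genes divided evenly, 4 of 13 in each direction, with SOX9, a factor of neural crest and cartilage, higher (5.38, 4.88 and 4.69 to 24.7, 19.5 and 23.8 CPM, 4.54-fold) and SOX2, a core pluripotency factor, lower (114, 111 and 121 to 69.1, 54.8 and 65.5 CPM, 1.83-fold). ETS genes were split as well, with 7 of 17 higher and 5 lower. The ETV factors ETV4, ETV1 and ETV5, which respond to FGF and ERK signalling, fell 1.64-fold, 1.57-fold and 1.60-fold, and ETS1 and ELF3 rose 1.52-fold and 1.67-fold.

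The nuclear receptors included NR2F1, which had no count in any N2B27 library and 1.60, 1.09 and 1.41 CPM with the inhibitor, and HNF4A, which rose from 7.87, 8.44 and 8.40 to 21.8, 20.5 and 20.3 CPM (2.53-fold). Of 33 tested, 9 rose and 4 fell. The large ZNF family of zinc finger genes was close to the background among risers, with 92 of 482 (19.1%) higher, and had a lower share of fallers, 31 (6.43%). ZNF664 rose from 42.9, 42.4 and 39.7 to 96.03, 97.95 and 104 CPM (2.38-fold) and ZNF483 fell from 134, 133 and 137 to 69.2, 72.003 and 65.4 CPM (1.95-fold). With all 9 libraries the ZNF counts were 60 higher and 15 lower.

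Among secreted signals, more TGF-beta and WNT ligands rose than fell, while more FGF genes fell than rose. Of 20 tested ligands of the TGF-beta superfamily 12 rose and 1 fell. GDF15, a hormone released under cell stress, rose from 18.4, 14.9 and 17.9 to 60.7, 58.2 and 57.7 CPM (3.45-fold, adjusted p = 1.53e-26), and LEFTY1 rose from 77.7, 83.4 and 75.9 to 148, 142 and 139.7 CPM (1.81-fold). GDF3, a NODAL-related ligand of pluripotent cells, was the member that fell, from 620.5, 599 and 601 to 506, 488 and 512 CPM (1.21-fold). WNT ligands rose in 6 of 11 and fell in none. WNT5A, a non-canonical WNT, went from 4.07, 3.70 and 4.23 to 18.7, 14.5 and 15.003 CPM (4.01-fold), and WNT3, a ligand of the primitive streak, from 61.2, 61.5 and 63.8 to 84.6, 81.2 and 86.05 CPM (1.35-fold). For FGF genes the balance was 3 higher and 5 lower of 11. FGF2 fell from 334, 340.4 and 337 to 197, 195 and 190.4 CPM (1.73-fold, adjusted p = 4.96e-27) and FGF4, which pluripotent cells secrete, from 99.6, 101 and 101 to 53.9, 47.3 and 46.2 CPM (2.05-fold, adjusted p = 3.29e-22). FGF8, a ligand of gastrulation, rose from 3.86, 3.21 and 5.03 to 9.32, 8.27 and 8.95 CPM (2.18-fold). The SPRY genes, feedback inhibitors of FGF receptors, also fell, SPRY2 1.32-fold, SPRY4 1.22-fold and SPRY1 1.98-fold. KITLG, the ligand of KIT, rose from 6.14, 7.19 and 8.46 to 24.2, 32.1 and 26.6 CPM (3.81-fold). Among Hedgehog components the receptor part SMO fell from 28.1, 25.6 and 29.95 to 14.5, 13.5 and 14.6 CPM (1.96-fold) and GLI2 fell 1.77-fold, while GLI3, mostly a repressor, rose from 7.52, 8.30 and 5.75 to 15.6, 15.7 and 16.6 CPM (2.22-fold). The Notch ligand JAG1 rose from 49.4, 51.1 and 48.2 to 102, 94.03 and 96.1 CPM (1.96-fold) and the receptor NOTCH3 fell from 70.8, 68.4 and 62.9 to 43.3, 39.5 and 40.6 CPM (1.64-fold).

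Among receptors and guidance cues, 10 of 20 tested EPH and ephrin genes rose and 3 fell. EFNB2 rose from 24.4, 23.6 and 23.1 to 46.8, 53.1 and 44.9 CPM (2.04-fold) and EPHA4 rose 4.52-fold, whereas EPHA1 fell 1.81-fold. NRP2, a co-receptor for semaphorins and VEGF, rose from 3.66, 4.19 and 2.98 to 18.3, 20.6 and 21.3 CPM (5.57-fold), and SEMA6B fell from 16.4, 16.8 and 18.4 to 6.79, 5.55 and 7.94 CPM (2.55-fold). ROBO1, a receptor for SLIT, rose from 21.9, 20.1 and 21.1 to 48.4, 48.2 and 46.5 CPM (2.27-fold). In the TNF superfamily 10 of 18 rose and 2 fell, TNFSF9 from 10.3, 10.7 and 10.9 to 43.8, 39.7 and 35.1 CPM (3.71-fold) and TNFSF8 from 0.276, 0 and 0.132 to 4.20, 4.77 and 2.49 CPM. TNFRSF8, the CD30 receptor for TNFSF8, fell from 50.8, 54.1 and 47.1 to 28.04, 29.03 and 29.5 CPM (1.76-fold), so ligand and receptor moved in opposite directions. RET, the receptor tyrosine kinase for GDNF ligands, rose 2.999-fold, and NTRK3, the receptor of the NTF3 product, rose from 6.35, 5.58 and 5.89 to 14.1, 14.2 and 14.6 CPM (2.41-fold).

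Among genes of the extracellular matrix and of its turnover more rose than fell, and among genes of the actin cytoskeleton more fell. Of 33 tested collagens 19 rose and 3 fell, with a median log2 change of 0.75. COL6A1 rose from 20.1, 22.3 and 22.8 to 56.8, 54.7 and 57.9 CPM (2.60-fold) and COL17A1, a hemidesmosome collagen, from 7.38, 5.65 and 5.36 to 22.7, 22.3 and 27.2 CPM (3.92-fold). COL1A1, a fibrillar collagen, fell from 25.6, 24.97 and 25.6 to 18.9, 18.2 and 20.05 CPM (1.33-fold). Laminins rose in 7 of 11. In the ADAM and MMP proteases 18 of 41 rose and 5 fell. The gelatinases MMP2 and MMP9 rose from 20.3, 24.1 and 25.6 to 104, 103 and 100.4 CPM (4.40-fold, adjusted p = 3.14e-34) and from 24.8, 22.7 and 20.04 to 88.8, 79.1 and 79.6 CPM (3.66-fold, adjusted p = 1.15e-29), and TIMP4, an inhibitor of such proteases, fell from 18.5, 17.6 and 18.4 to 9.39, 9.29 and 10.1 CPM (1.90-fold). Actin and contractile genes fell in 19 of 31 and rose in 4, with a median of -0.33. ACTN1, which cross-links actin, fell from 578, 524 and 566 to 409, 416 and 426 CPM (1.33-fold), CNN2 fell 1.41-fold and TPM2 fell 1.61-fold. Of 11 tested classical cadherins 6 rose, 4 of them over 2-fold, and 3 fell, 1 over 2-fold. CDH11, a mesenchymal cadherin, rose from 2.14, 2.23 and 2.45 to 8.92, 7.30 and 8.61 CPM (3.63-fold), and the placental cadherin CDH3 fell from 137, 129 and 136 to 98.2, 96.6 and 104 CPM (1.35-fold). The keratins KRT8 and KRT18 of simple epithelia rose 1.32-fold and 1.20-fold. ITGB8, an integrin chain that releases active TGF-beta, rose from 0.621, 0.558 and 0.463 to 6.53, 4.04 and 5.92 CPM (9.90-fold). THY1, a surface glycoprotein of pluripotent cells and fibroblasts, fell from 123, 108 and 122 to 43.7, 45.99 and 39.8 CPM (2.72-fold, adjusted p = 2.89e-28).

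Genes of neurons moved in both directions. Among 51 tested genes of synapse and neuron structure 13 rose and 6 fell. CNTNAP2, an adhesion protein of axons, rose from 49.95, 40.5 and 46.3 to 151, 159 and 151 CPM (3.37-fold, adjusted p = 2.85e-33) and the neurofilament NEFL from 51.5, 58.2 and 56.9 to 153, 147 and 152 CPM (2.71-fold, adjusted p = 1.28e-31). STMN3 fell from 34.9, 35.9 and 34.8 to 19.6, 17.7 and 18.5 CPM (1.89-fold). Of 49 tested neurotransmitter receptors 9 rose and 9 fell, near the background. GABRB2, a GABA receptor subunit, rose from 2.14, 2.30 and 1.85 to 14.3, 13.5 and 14.5 CPM (6.70-fold). GRIA1, a glutamate receptor subunit, fell from 1.52, 1.40 and 1.45 to 0.2, 0.181 and 0.135 CPM. SLC carriers were close to the background, with 62 of 243 higher and 54 lower. The phosphate carrier SLC34A2 rose from 11.9, 9.07 and 10.3 to 43.2, 45.8 and 42.7 CPM (4.21-fold), and the zinc carrier SLC39A10 fell from 247, 250.03 and 242 to 148, 149 and 146 CPM (1.67-fold). Amino acid carriers diverged, SLC7A7 and SLC7A2 rising 2.22-fold and 2.04-fold and SLC7A8 and SLC7A3 falling 1.75-fold and 1.48-fold.

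Genes of the oocyte and early embryo rose in 41 of 73 tested members and fell in 10, the PRAMEF and TRIM genes above making up many of the risers. Those that fell included KHDC3L, a maternal-effect gene (248, 238 and 245 to 167, 161 and 165 CPM, 1.48-fold), and DPPA5 (393, 399 and 407 to 300.02, 293 and 303 CPM, 1.34-fold). CCNA1, a cyclin of germ cells and early embryos, rose from 64.4, 60.3 and 63.8 to 189, 196 and 211 CPM (3.16-fold, adjusted p = 2.85e-36). Cancer-testis genes rose in 12 of 43. DNMT3L, the cofactor of DNA methyltransferases, rose from 374, 342 and 372 to 608, 584 and 591 CPM (1.64-fold, adjusted p = 2.45e-26), the direction opposite to that of DNMT3B.

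Of 18 tested cyclins and CDK inhibitors 8 rose and 4 fell. CDKN1A, the CDK inhibitor p21, rose from 25.3, 29.3 and 28.96 to 86.8, 85.3 and 90.8 CPM (3.14-fold, adjusted p = 4.15e-29), and CCND2, a G1 cyclin, from 93.8, 91.2 and 89.3 to 194, 209.9 and 205 CPM (2.22-fold, adjusted p = 3.35e-30). PMAIP1, the pro-apoptotic BH3 protein NOXA, rose from 155, 158 and 146 to 268, 268 and 249 CPM (1.71-fold) and BCL2L11, the BH3 protein BIM, from 14.97, 14.9 and 14.7 to 30.6, 26.6 and 28.1 CPM (1.91-fold). BID, of the same kind, fell from 6.21, 6.77 and 6.28 to 2.93, 2.17 and 3.09 CPM (2.35-fold). Among chemokine and interleukin genes 11 of 34 rose and 4 fell, with ACKR3, a scavenger receptor for CXCL12, higher (2.21, 3.63 and 1.72 to 13.7, 13.2 and 12.4 CPM, 5.20-fold) and CXCL12 itself lower (56.2, 50.995 and 52.04 to 40.7, 41.5 and 43.3 CPM, 1.27-fold). Interferon-stimulated genes rose in 9 of 23 and fell in 1, MX1 going from 8.83, 8.51 and 9.92 to 21.5, 22.6 and 22.4 CPM (2.44-fold) and the DNA sensor IFI16 from 5.80, 4.81 and 5.75 to 18.1, 16.7 and 18.1 CPM (3.23-fold). B2M, the light chain of MHC class I, rose from 49.8, 52.1 and 52.6 to 79.3, 89.2 and 81.6 CPM (1.62-fold).

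Histone lysine methyltransferases and demethylases were the chromatin genes counted as a family, with 10 of 61 higher and 14 lower, near the background. PRDM1, a transcriptional repressor needed to specify germ cells, rose from 5.66, 6.35 and 6.48 to 17.98, 17.4 and 18.6 CPM (2.92-fold). KDM2B, which brings PRC1 to CpG islands, fell from 167, 157 and 159.8 to 127, 119 and 118 CPM (1.33-fold), and KDM4A and KDM4C fell 1.40-fold and 1.47-fold. With all 9 libraries 6 of the family fell. Of 19 tested histone genes 2 rose.

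Several groups of abundant genes of general cell upkeep were called mostly in 1 direction, with small changes. Over all tested genes above 100 CPM 18.5% rose and 43.1% fell, and the counts below should be read against these shares as well. Ribosomal protein genes rose in 55 of 80 tested and fell in 1, with a median log2 change of 0.14, RPL13A for example going from 1909, 1849 and 1869.6 to 2363, 2223 and 2268 CPM (1.22-fold). Small nucleolar RNA host genes, whose spliced RNAs are controlled much like those of ribosomal proteins, rose in 14 of 28 with a median of 0.28. SNHG29 rose from 341, 325 and 333 to 468, 416 and 432 CPM (1.32-fold) and GAS5 from 243, 268 and 247 to 311, 309.7 and 327 CPM (1.25-fold). Proteasome subunits fell in 27 of 44 and rose in 1 (median -0.13), PSMA5 from 147, 143 and 147 to 119, 119 and 118 CPM (1.23-fold). Subunits of respiratory chain complex I fell in 11 of 39 and rose in none (median -0.10), NDUFS1 from 192, 189 and 189 to 138, 136 and 139.7 CPM (1.38-fold). Of 13 protein genes of the mitochondrial genome 7 fell (median -0.16), while the mitochondrial ribosomal RNA MT-RNR1 rose from 850.02, 822 and 818 to 1082, 1166 and 1093 CPM (1.34-fold). The part of RNA selection or ribosomal RNA depletion in the MT-RNR1 change was not tested. Heat shock genes were split, 16 of 61 higher and 17 lower. HSPA2 rose from 97.3, 85.4 and 88.2 to 184, 183 and 187 CPM (2.04-fold), and the mitochondrial chaperones HSPA9 and HSPD1 fell 1.21-fold and 1.18-fold. Of the genes named here only HSPA2 passes when more than a 1.5-fold change is required. With all 9 libraries in the fit, 7 ribosomal protein genes rose, 7 proteasome and 6 complex I genes fell, and heat shock genes gave 10 higher and 8 lower.

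Among long non-coding genes a smaller share was called, and more of those called rose than fell. Of 13397 tested protein coding genes 2757 rose and 2653 fell. Of 775 tested long non-coding RNA genes 112 (14.5%) rose and 43 (5.55%) fell. By annotated class these were 50 higher and 14 lower of 290 lincRNAs, 38 and 19 of 349 antisense RNAs, and 24 and 10 of 136 others. Pseudogenes rose in 44 and fell in 20 of 345. With all 9 libraries 23 antisense RNAs rose and 9 lincRNAs and 6 others fell. Leaving out N2B27 replicate 3 left 7 lincRNAs and 4 others lower, and leaving out inhibitor replicate 1 left 5 others and 12 pseudogenes lower. Without N2B27 replicate 1, 13 pseudogenes fell, and without inhibitor replicate 2, 6 others did. The classes differ in level and so in power, and the difference between them was not tested.

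The largest increases among non-coding genes, and those of pseudogenes, were from levels near the floor. HOTAIRM1, an antisense RNA of the HOXA cluster (chromosome 7, 27095647 to 27100265), had 0, 0.209 and 0.331 CPM in N2B27 and 4.33, 3.98 and 3.70 CPM with EPZ-6438 (log2 4.40, SE 0.48, adjusted p = 1.24e-11). LINC02086 (chromosome 17, 48646923 to 48707346) had 0.207, 0.419 and 0.0661 CPM and 3.26, 3.56 and 2.89 CPM (13.8-fold, adjusted p = 1.39e-09). LINC00461, a brain-expressed RNA (chromosome 5, 88507546 to 88691041), had 0, 0.209 and 0.463 and 2.86, 2.17 and 2.83 CPM (11.2-fold). TPRX2, annotated as a pseudogene in the release used and related to homeobox genes of the cleavage embryo, had 0.345, 0.279 and 0.132 and 3.40, 2.23 and 3.36 CPM (11.6-fold). LUCAT1 (0.483, 0.349 and 0.595 to 2.997, 2.29 and 3.03 CPM), LINC02709 (0.828, 0.558 and 0.794 to 2.73, 3.38 and 3.97 CPM) and MIR99AHG, the host of the miR-99a, let-7c and miR-125b-2 precursors (0.828, 0.837 and 0.992 to 4.60, 4.77 and 3.23 CPM), rose 5.72-fold, 4.58-fold and 4.71-fold. SRSF8BP, PRAMEF28P and UBTFL7 were the other pseudogenes chosen, at 6.02-fold, 5.93-fold and 4.99-fold. The ranges of the groups were apart in each of these genes, as the choice required. HOTAIRM1, LINC02086, LINC00461 and TPRX2 passed the filter on low counts through the inhibitor libraries, so their calls follow in part from it.

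The decreases chosen by the same rule, with at least 2 CPM in the higher group, were smaller; CRMA, under that level, is given above. JAKMIP2-AS1 fell from 1.86, 2.51 and 1.92 to 0.533, 0.483 and 0.673 CPM (3.70-fold, adjusted p = 0.00034), while the overlapping coding gene JAKMIP2 rose 2.30-fold, a call lost with all 9 libraries, without N2B27 replicate 3 and without inhibitor replicate 1 or 3. FOXD3-AS1 fell from 42.9, 46.9 and 40.7 to 23.6, 22.5 and 20.3 CPM (1.96-fold, adjusted p = 1e-14) together with FOXD3. ICMT-DT fell 2.01-fold and the pseudogene ANKRD18CP 2.15-fold. The pseudogene STAG3L1, with 2.83, 1.26 and 3.24 CPM and then 0.4, 0 and 1.08 CPM, lost its call with DESeq2, with the 1.5-fold requirement and without inhibitor replicate 1.

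Among abundant non-coding RNAs, named after their values were seen, SNHG14, the long host transcript of the imprinted SNORD115 and SNORD116 region, fell from 1509.6, 1552 and 1517 to 1157, 1219.5 and 1197 CPM (1.28-fold, adjusted p = 6.7e-17), a call lost with all 9 libraries. ESRG, an RNA driven by an HERVH element in pluripotent cells, fell from 665, 612 and 629.9 to 449, 472 and 475 CPM (1.37-fold, adjusted p = 6.76e-18). LNCPRESS1, another RNA of pluripotent cells, fell from 50.7, 45.2 and 51.3 to 29.6, 33.8 and 33.1 CPM (1.53-fold). On the other side, MIAT rose from 36.6, 27.8 and 31.5 to 66.9, 70.4 and 75.01 CPM (2.21-fold, adjusted p = 9.23e-19). NEAT1, the scaffold of paraspeckles, rose from 43.6, 45.2 and 39.8 to 77.8, 85.3 and 75.1 CPM (1.85-fold, adjusted p = 1.1e-17), and PURPL, an RNA induced by p53, from 50.4, 51.97 and 49.99 to 75.99, 80.5 and 83.3 CPM (1.57-fold, adjusted p = 1.27e-13). ERVH48-1, an RNA of an endogenous retrovirus that encodes the secreted protein suppressyn, rose from 515, 495 and 504 to 574, 602 and 609.9 CPM, only 1.18-fold. The groups did not overlap in any of these 7 genes. Over all tested genes the same held for 24.4% toward the inhibitor and 23.1% toward N2B27.

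Long non-coding RNAs that rose often lay beside coding genes that rose. Of the 112, 64 had a tested coding gene within 5 kb, and 31 of these neighbours (48.4%) rose while 9 fell. For the 618 long non-coding RNAs without a call whose position was used, 445 had such a neighbour and 85 of these (19.1%) rose. Of the 43 that fell, 31 had a neighbour, of which 9 fell and 5 rose. Pairs that rose together, named after their values were seen, included NR2F1-AS1 (log2 2.15) with NR2F1, which had no count in N2B27, ISL1-DT with ISL1 (1.31 and 1.70) and LINC01896 with SALL3 (2.87 and 1.32). FGF13-AS1 and FGF13 went in opposite directions (-1.001 and 0.34), though the call of FGF13-AS1 was lost when the PXGL libraries entered the fit and in 5 of the 6 fits that left out a library. Of the 64 non-coding risers with such a neighbour 48 overlap it, whatever its call, and strand is not stated. A shared read may thus count for either gene. How much of the pairing comes from that was not tested.

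The share of genes that rose varied with position and transcript structure. Among nuclear chromosomes it was lowest on chromosomes 16 (11.9%), 19 (12.98%) and 17 (14.5%) and highest on 18 (27.1%), 5 (26.2%) and 8 (26.1%). The median G and C content of transcripts was 55.4%, 58.4% and 54.7% in the first set and 43.4%, 44.8% and 45.3% in the second, but chromosome 22, at 56.9%, had 18.3% of its genes higher. In 5 bins of transcript G and C content of equal size, 14.8% of protein coding genes rose and 23.2% fell in the richest bin, 23.99% rose and 20.3% fell in the middle bin, and 20.5% rose and 18.1% fell in the poorest. Median levels fell from 36.4 CPM in the poorest bin to 14.4 CPM in the richest, so power differed too. In 5 bins of transcript length, the share that rose went from 14.8% in the shortest to 30.1% in the longest, with the share that fell between 18.2% and 20.9%. Median levels also rise with length, from 16.6 CPM to 38.2 CPM, and the test has more power there.

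Some genes were counted in 1 group only. No N2B27 library had a count for 1656 genes that had one with the inhibitor, 440 of them with more than 3 counts over the 3 libraries and 83 with 10 or more. The reverse held for 951 genes, 181 with more than 3 counts and 12 with 10 or more. Only 3 of these genes, HOXB9, NR2F1 and HOXC12, passed the filter on low counts, which they did through the inhibitor libraries, so their calls follow from how they were chosen. HOXB9 had 24, 19 and 23 counts, NR2F1 24, 18 and 21, and HOXC12 24, 20 and 13. With 3 counts over the whole N2B27 group as the limit, these are at least 21.3-fold, 20.3-fold and 18.4-fold higher. HOXB4 (34, 11 and 16 counts), UBTFL1 (23, 17 and 8), ZNF521, a multi-zinc-finger factor of progenitor cells (15, 11 and 13), and CPHXL, a homeobox gene of the cleavage embryo (8, 21 and 6), were counted in all the inhibitor libraries and are at least 19.6-fold, 15.5-fold, 12.6-fold and 11.3-fold higher by the same limit. CDRT4 had its 70 counts in inhibitor replicate 3 alone, and BLOC1S5-TXNDC5 its 62 in N2B27 replicate 3 alone.

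Marker genes were summed to place the cells. The shares should be read against 20.1% higher and 18.7% lower over all tested genes, and 43.1% lower over 100 CPM. All 10 pluripotency markers were abundant and fell, with sums of 7355, 7417 and 7404 CPM in N2B27 and 5937, 5914 and 5960 CPM with the inhibitor. Their median log2 change was -0.36 and none fell over 2-fold. Most of the 10 lost their call when more than a 1.5-fold change was required. Of 10 hypoblast markers 6 were tested and 5 rose (sums 134 to 149 and 233 to 237 CPM), PDGFRA did not pass (5.17, 6.49 and 5.42 and 6.19, 6.28 and 4.10 CPM), and APOA1 had no count. All 4 tested of 5 mesendoderm markers rose (18.3 to 21.5 and 129 to 139 CPM), MIXL1 from 13.6, 13.5 and 11.8 to 66.5, 60.5 and 67.5 CPM (4.99-fold). Most of the sum with the inhibitor was TBXT and MIXL1. The call of GSC was lost with the 1.5-fold requirement, without N2B27 replicate 2 or 3 and without inhibitor replicate 3. Trophectoderm markers rose in 4 of 8 tested (104 to 108 and 114 to 129 CPM) with CGA at 0. CDX2 among them went from 0, 0.0698 and 0.0661 to 2.40, 1.99 and 2.89 CPM. Amnion markers summed to 15.6 to 17.3 and 12.4 to 13.7 CPM, 1 rising and 1 falling of 4 tested, with VTCN1 at 0. The 2 tested neuroectoderm markers rose (2.58 to 3.00 and 11.6 to 14.2 CPM). Fibroblast markers summed to 201 to 222 and 145 to 151 CPM. Of 5 tested, COL1A1, COL1A2 and THY1 fell, and VIM (44.2, 37.2 and 36.1 to 56.9, 54.4 and 52.8 CPM) and TWIST1 (1.79, 1.67 and 1.45 to 7.79, 5.61 and 8.48 CPM) rose, with DCN and S100A4 at 0 and LUM at no more than 3 counts. The part of any change in cell makeup in the results was not tested.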

How the data were processed

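RNA-seq libraries of H1 cells in N2B27 alone and in N2B27 with EPZ-6438 were compared, 3 a group. The deposited values are expected counts per gene; the submitters' processing notes name Trim Galore, STAR 2.7.6a, DESeq2 and hg38, with no roles; whether reads were counted by strand is not known here. The molecule label reads polyA RNA but the protocol names a kit for ribosomal RNA depletion, so which was used is not known here. Between 7.13% and 7.74% of values in the 6 libraries were not whole numbers, and all were rounded.

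Quasi-likelihood tests, 2-sided (edgeR 4.0.16, R 4.3.3), were run with TMM scaling and edgeR's low-count filter on these 6 libraries alone, because PXGL libraries may vary more (their biological coefficient of variation was 12.2%). All adjusted p-values are edgeR's, Benjamini-Hochberg over 14566 genes. On simulated data with 14368 genes, 68.7% of 1.5-fold, 95.2% of 2-fold and 98.5% of 4-fold changes were recovered with 7 false calls. Only 67, 62 and 66 tested genes were changed by these folds, with the spread taken from the fit. Far more genes were called in the real data, so these rates and the false calls do not carry over to it.

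Gene types and positions came from GENCODE 29 (40189 of 40330 symbols matched), promoters from RefSeq (GRCh38.p14). The comparison and all lists were chosen with earlier results of these data known. Named genes were the PRC2 genes, the largest changes in fold (coding genes from 5 CPM, others from 2 CPM) or CPM with non-overlapping groups, the smallest p-values in each family, members of the 5 longest runs and the one-group genes with most counts. Alternatives were DESeq2 1.42.0, its size factors, all 9 libraries, 2 other filters, a 1.5-fold requirement, a replicate block and leaving out each library.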

Additional observations from a re-analysis of the deposited data

How the results depend on the processing

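The number of genes called depended most on the fold required and on the libraries in the fit. With all 9 libraries 3752 genes were called, 1603 of them lower, and 65.4% of the 5641 calls were shared. With the 1.5-fold requirement 891 were called, 734 higher and 157 lower, and 101 genes were over 2-fold lower. Of all calls 57.3% were higher with all 9 libraries and 82.4% with the 1.5-fold requirement, against 51.8%. The other settings stayed within 1.5 times of the count: 5699 with DESeq2 size factors, 4910 with DESeq2, 5651 without a filter, 5562 with a stricter one, and 4954 to 5112 when each replicate was left out in turn. The replicate numbers did not pair the samples (correlations of same-numbered deviations 0.042, 0.012 and 0.0067), and with the replicate block 5718 genes were called. No call shared with an alternative changed direction. Of 453 named and marker genes with a call, 223 lost it in at least 1 setting, and 47 outside the 1.5-fold requirement and the fit of all 9 libraries. At this depth 3 counts are 0.182 to 0.207 CPM, so genes near that level could not be tested.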
